A study of Mus musculus with 6 samples.

Results

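Open chromatin was examined at 7 genes of the endothelial response to blood flow: the Krüppel-like factors Klf2, Klf4 and Klf6, the MEF2 factors Mef2a and Mef2c, and the vasoprotective genes Nos3 and Thbd. The measurements were ATAC-seq, in which the transposase Tn5 cuts accessible DNA, on lung endothelial cells isolated from mice. Of the 6 libraries, 3 came from CSE-KO mice, which carry Cre and have lost the hydrogen sulfide producing enzyme CSE (cystathionine gamma-lyase, gene Cth). The other 3 came from Cre-negative mice, labelled WT, and each library was made from 50000 cells. The labels give neither the promoter that drives Cre nor the strain, age or treatment of the mice, and since every CSE-KO library is Cre-positive, effects of Cre and of the lost enzyme cannot be told apart. The regions were selected by position, not by their values. A region belonged to a gene if the deposited table gave that symbol, or, where the table gave no gene, if the nearest protein-coding start site in the table lay within 100 kb and was that gene's. This gave 43 of the 58172 regions, 11 by symbol and 32 by distance, all of which passed the filter on low values. Klf6 had 16 regions, Klf4 had 9, Mef2a had 7, Klf2 had 6, Thbd had 3 and Nos3 had 2. Mef2c had none, because no row of the table used here is assigned to it.

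Laminar flow over endothelium activates the kinase ERK5, which acts on MEF2 factors bound at the Klf2 and Klf4 promoters. KLF2 and KLF4 then raise genes that keep the vessel wall relaxed and free of clots. Among these are Nos3, which encodes the nitric oxide synthase eNOS, and Thbd, which encodes thrombomodulin, the surface receptor that turns thrombin towards activation of protein C. Class IIa histone deacetylases hold MEF2 factors in check. KLF6 is a broadly expressed relative of KLF2 and KLF4 that is linked to the response to vascular injury.

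The 250 bases before the RefSeq start site (GRCm38, the build of the deposited mm10 coordinates) are printed for the 3 member promoters whose window lay wholly inside an open region, to show which of them holds a MEF2 motif. Capitals mark matches, on either strand, to the MEF2 motif (CTANNNNTAG), the KLF core (CACCC) and the GC box (GGGCGG), which was added after the sequences were seen and was matched only as written.
Klf2, chr8:72318812-72319061, plus strand: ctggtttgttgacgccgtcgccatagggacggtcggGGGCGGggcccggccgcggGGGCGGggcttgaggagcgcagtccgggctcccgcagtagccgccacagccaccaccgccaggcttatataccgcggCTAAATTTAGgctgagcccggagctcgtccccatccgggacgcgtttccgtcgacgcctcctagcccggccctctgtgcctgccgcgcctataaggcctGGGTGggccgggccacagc
Klf4, chr4:55532476-55532725, minus strand: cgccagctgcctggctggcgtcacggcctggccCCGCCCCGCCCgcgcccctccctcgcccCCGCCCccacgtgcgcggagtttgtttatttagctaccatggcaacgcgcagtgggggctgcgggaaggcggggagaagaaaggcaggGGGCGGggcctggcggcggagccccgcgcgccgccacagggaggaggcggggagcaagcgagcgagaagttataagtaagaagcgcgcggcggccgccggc
Mef2a, chr7:67372859-67373108, minus strand: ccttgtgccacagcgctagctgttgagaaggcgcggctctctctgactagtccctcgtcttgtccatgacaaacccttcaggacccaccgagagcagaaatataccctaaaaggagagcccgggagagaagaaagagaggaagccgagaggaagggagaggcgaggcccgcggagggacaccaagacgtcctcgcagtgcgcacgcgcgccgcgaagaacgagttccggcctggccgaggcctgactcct

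The Klf2 promoter held 1 match to the MEF2 motif, from 118 to 109 bases before the start site. These letters were found in 3.2% of the 32851 promoter windows of that length in the RefSeq table, and in none of the windows of Klf4, Klf6 or Mef2a. Only the pattern as written was searched, so a MEF2 site with other letters or outside the window would be missed. The KLF core is common, with 52% of all windows holding it, and occurred once in the Klf2 window. The GC box, held by 32.7% of all windows, occurred 2 times at Klf2, 4 times at Klf4, where 1 pair of matches overlaps by 1 base, 1 time at Klf6 and not at Mef2a. No window of these 4 genes held the AP-1 motif (TGANTCA, 6.75% of all windows) or the ETS core (CGGAAG, 13.6%). The windows were rich in G and C, with 71.2% at Klf2, 74% at Klf4, 64.8% at Klf6 and 61.6% at Mef2a, against a median of 52.4% over all windows. The table of promoters used here has no entry for Nos3 or Thbd.

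The deposited values are whole numbers on a common scale, which sum to 5437296, 5547417 and 5536256 in the CSE-KO libraries and to 5368491, 5264443 and 5242490 in the WT libraries. The CSE-KO columns skip 39, 35 and 39 of the 101 whole numbers from 0 to 100, so that 1 read was worth about 1.63, 1.53 and 1.63 there, while the WT columns skip none. The CSE-KO libraries therefore rest on fewer reads, and the residual SD of log2 values was 0.48 among them, against 0.31 among WT libraries. The Cth promoter had values of 11, 6 and 2 in CSE-KO and of 195, 157 and 167 in WT, so no library went against its label. Promoter regions were present for 9 of 11 endothelial markers, for 4 of 11 mural and fibroblast markers, for 4 of 9 lung epithelial markers and for 2 of 8 leukocyte markers. No promoter region was listed for the defining leukocyte gene Ptprc, the epithelial genes Sftpc and Cdh1 or the endothelial gene Pecam1. The markers of other cells with a promoter region were Spi1 and Cd68 (leukocyte) and Epcam, Krt18, Hopx and Foxj1 (epithelial). Those of mural cells and fibroblasts were Pdgfrb, Acta2, Myh11 and Col1a1. The summed promoter values of the endothelial markers were 1287 to 1420 in CSE-KO and 1209 to 1260 in WT. They were 254 to 281 in CSE-KO and 198 to 204 in WT for mural markers, 152 to 221 in CSE-KO and 172 to 208 in WT for epithelial markers, and 175 to 186 in CSE-KO and 247 to 284 in WT for leukocyte markers. The part of these other cells in the values below was not tested.

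The promoters of Klf2, Klf4, Klf6, Thbd and Mef2a were open in both genotypes, and no change was called at the region nearest the start site of any of them. The Klf2 promoter, around the MEF2 match printed above (chromosome 8, 72318674 to 72319648), had values of 276, 355 and 371 in CSE-KO and 388, 323 and 335 in WT. The groups overlapped, and the change was -0.07 ± 0.19 (log2 of value + 1, SE; limma adjusted p = 0.827). That of Klf4 (chromosome 4, 55532220 to 55533382) had 319, 360 and 335 in CSE-KO and 358, 337 and 372 in WT, a change of -0.07 ± 0.15. The promoter of Klf6 (chromosome 13, 5860888 to 5861401) had 193, 245 and 144 in CSE-KO and 190, 195 and 183 in WT. Its 3 CSE-KO libraries spread on both sides of the WT values, with a change of 0.002 ± 0.22. The Thbd promoter, which reaches into the gene (chromosome 2, 148407083 to 148408436), had 399, 481 and 412 in CSE-KO and 512, 462 and 508 in WT. The Mef2a promoter (chromosome 7, 67372734 to 67373716) had 340, 432 and 417 in CSE-KO and 476, 436 and 406 in WT. The changes at these were -0.20 ± 0.16 and -0.15 ± 0.17, and both pairs of groups overlapped (limma adjusted p = 0.423 and 0.575). Over all 13246 promoter regions tested, 5.23% were called higher and 3.29% lower, with a median log2 change of 0.11.

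Per kilobase of region, so that genes can be compared, the level was 404 ± 50.3 at the Mef2a promoter, 378 ± 98.5 at Klf6, 343 ± 52.2 at Klf2, 318 ± 32.6 at Thbd and 291 ± 17.8 at Klf4 in CSE-KO. In WT it was 447 ± 35.8 at Mef2a, 369 ± 11.7 at Klf6, 365 ± 20.5 at Thbd, 358 ± 35.5 at Klf2 and 306 ± 15.2 at Klf4 (SD, n = 3 each). The order thus differed between the genotypes only in the places of Thbd and Klf2. In CSE-KO no neighbours in this order were farther apart than the larger of their SDs. In WT the gaps from Mef2a to Klf6 and from Klf2 to Klf4 were larger than either SD, and the others were not. For Nos3 no region within 1 kb of the start site was listed.

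**Figure D1:**
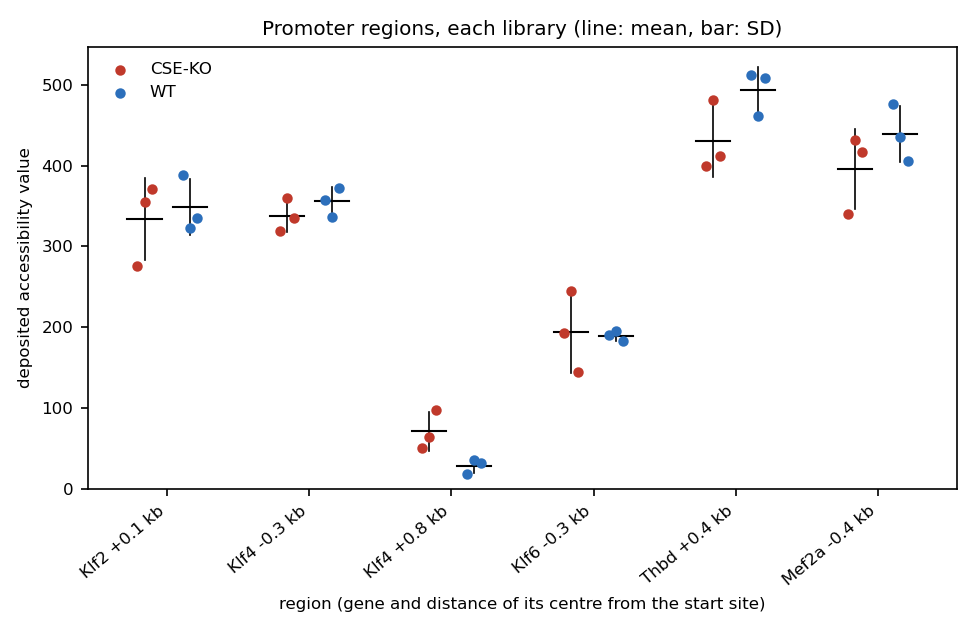
Deposited accessibility value (vertical axis, from 0) of each library at the 6 member regions within 1 kb of a start site, with CSE-KO in red left of WT in blue, the group mean as a line and the SD as a bar. The groups overlap at every region but the small one 0.8 kb into Klf4, where CSE-KO lies at 51 to 98 and WT at 18 to 35.

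Outside the main promoter regions, the regions called higher lay at Nos3, Thbd and Klf6 and, in a small region within 1 kb of its start site, at Klf4, and those called lower all lay upstream of Mef2a. A region was called at a Benjamini-Hochberg adjusted p of at most 0.05 by limma over all 58129 tested regions, of which 17.3% were called, 7.7% higher and 9.6% lower in CSE-KO. Of the 43 member regions 6 were called higher (14%) and 4 lower (9.3%). The share of higher calls was above the background and that of lower calls near it, so it is their placement by gene, not their number, that the following describes. Without WT replicate 1, 2 or 3 the members had 3, 3 and 2 higher calls and 2, 1 and 1 lower calls, and without CSE-KO replicate 1 they had 5 higher and 8 lower. Calls over all tested regions fell from 10057 to 3602, 3684 and 3519 without these WT replicates and to 8922 without CSE-KO replicate 1. The loss of calls without a WT library was thus not particular to the members. Equal sums and quantile normalization, among others, added lower calls at a region each of Klf2, Klf6 and Mef2a. The median log2 change of the members was -0.15, against -0.004 for all tested regions. The groups did not overlap at 22 of the 43 member regions, with CSE-KO above at 9 and below at 13. Of all tested regions 39.5% showed no overlap, with CSE-KO above at 19% and below at 20.5%.

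**Figure D2:**
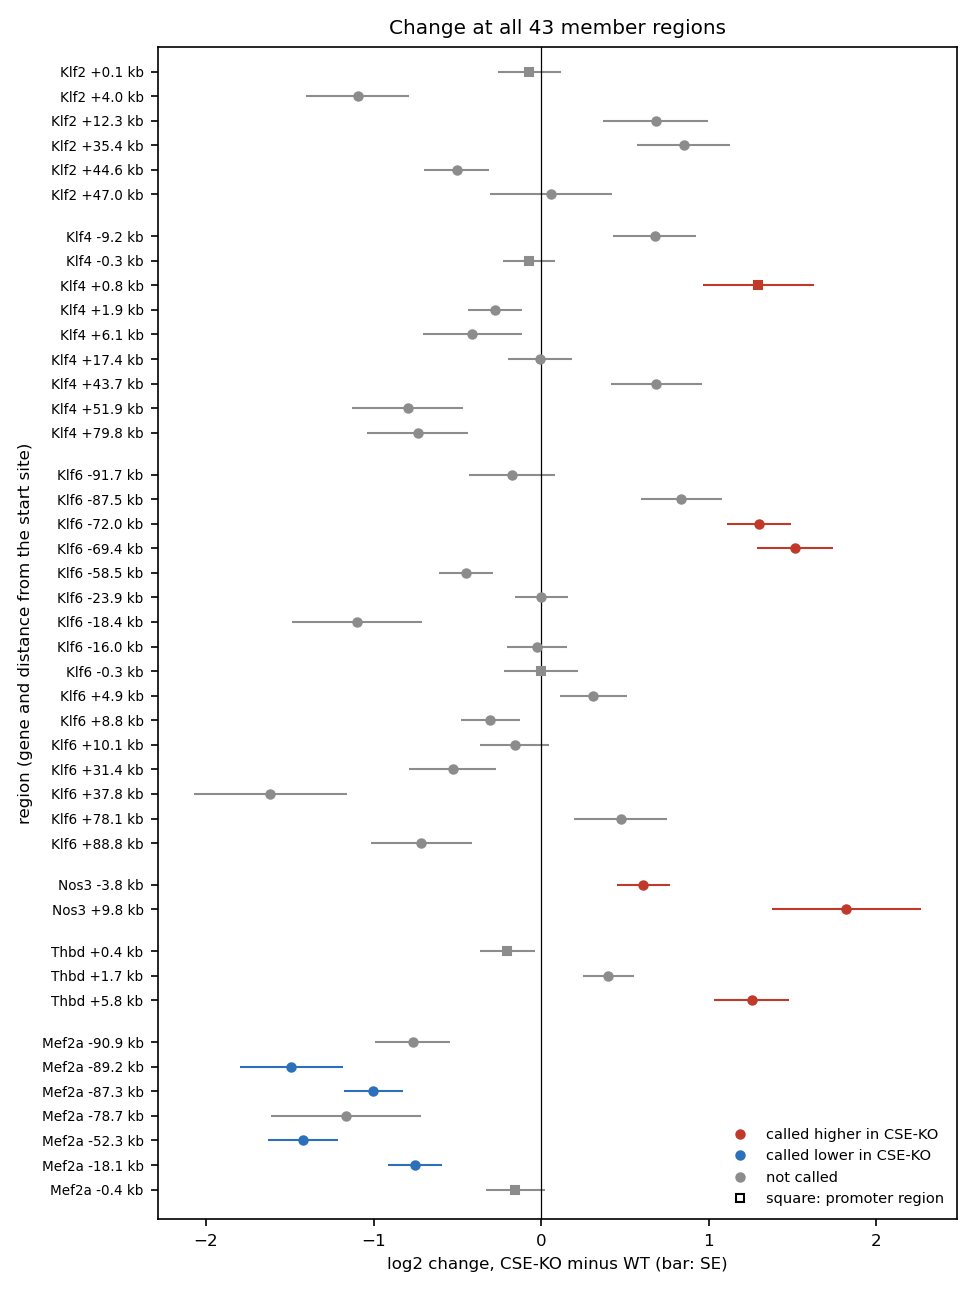
Log2 change of CSE-KO minus WT with its SE (horizontal axis) at each of the 43 regions, grouped by gene and ordered by distance from the start site, where a minus sign means upstream. All 7 Mef2a regions lie left of 0 and both Nos3 regions right of it, while Klf2, Klf4 and Klf6 have regions on either side.

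Mef2a, a transcription factor that carries the flow signal to the Klf2 and Klf4 promoters, had lower accessibility in CSE-KO upstream of the gene. Its 6 distal regions lay between 18.1 and 90.9 kb upstream of the start site, and 4 of them were called lower, against 11.5% lower and 8.43% higher among all distal regions. The region 52.3 kb upstream (chromosome 7, 67424825 to 67425508) had values of 38, 52 and 36 in CSE-KO and 113, 129 and 98 in WT. Every CSE-KO library was below every WT library, and the region fell 2.68-fold (log2 change -1.42 ± 0.21, limma adjusted p = 0.00767). This call held under each of the 17 alternative settings tried. The region 18.1 kb upstream (67390735 to 67391173) had 67, 75 and 62 in CSE-KO and 110, 119 and 116 in WT. It fell 1.69-fold (log2 change -0.75 ± 0.16, limma adjusted p = 0.0221), with no overlap between the groups.

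A cluster of 3 regions between 87.3 and 90.9 kb upstream of Mef2a lay side by side, so they are not independent observations. The strongest of them (67461797 to 67462384) had 60, 41 and 97 in CSE-KO and 194, 166 and 170 in WT, and fell 2.81-fold (log2 change -1.49 ± 0.31, limma adjusted p = 0.0201). The region beside it (67459959 to 67460283) had 28, 38 and 33 in CSE-KO and 63, 70 and 67 in WT, a fall of 2-fold (limma adjusted p = 0.0124). Both were separated by group. The outermost (67463623 to 67463882) had 23, 20 and 30 in CSE-KO and 51, 35 and 40 in WT, which missed the threshold (limma adjusted p = 0.0563), as did the weak region 78.7 kb upstream, with 11, 6 and 25 in CSE-KO and 32, 23 and 30 in WT (limma adjusted p = 0.116). None of the 6 lies in a RefSeq gene span, and assignment by distance does not show that they act on Mef2a.

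Summed over its 6 distal regions, Mef2a had 227, 232 and 283 in CSE-KO and 563, 542 and 521 in WT, a ratio of 0.456. An exact permutation test (two-sided) gave p = 0.1, which is the lowest value possible with 3 libraries against 3. In the same interval the table lists 1 region under a noncoding gene, with 25, 23 and 23 in CSE-KO and 12, 14 and 31 in WT (chromosome 7, 67443159 to 67443514, limma adjusted p = 0.415), so not every open site there was lower. Without WT replicate 1, 2 or 3 the fall at 18.1 kb (limma adjusted p = 0.0713, 0.0855 and 0.0828) and that at 89.2 kb (0.0767, 0.0655 and 0.0678) were not called. Their log2 changes were then -0.78, -0.73 and -0.75 at 18.1 kb and -1.42, -1.53 and -1.52 at 89.2 kb. The fall at 87.3 kb was not called without WT replicate 2 or 3 (limma adjusted p = 0.0565 and 0.0553).

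Mef2c, the MEF2 factor best known from heart and endothelial development, has no member region, yet 15 regions of the table lie in its RefSeq span (chromosome 13, 83504017 to 83667079). They were looked up after the values were seen, are not counted above, and lie 567 to 698 kb from the nearest protein-coding start site of the table. The region that overlaps an annotated inner Mef2c promoter (83523570 to 83524594) had 119, 153 and 189 in CSE-KO and 181, 200 and 148 in WT, and the groups overlapped (limma adjusted p = 0.548). Inside the gene the region 62.2 kb from its start (83565779 to 83566639) had 64, 66 and 67 in CSE-KO and 238, 201 and 244 in WT. It fell 3.42-fold (log2 change -1.77 ± 0.16, limma adjusted p = 0.00277). The region at 105 kb (83609138 to 83609707) had 41, 34 and 46 in CSE-KO and 108, 106 and 102 in WT, a fall of 2.59-fold (limma adjusted p = 0.00541).

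A small neighbour of the region at 105 kb within Mef2c, from 83608285 to 83608507, moved the other way, with 59, 35 and 66 in CSE-KO and 3, 13 and 15 in WT (limma adjusted p = 0.0247). A weak region at 41.1 kb was called lower, with 15, 5 and 10 in CSE-KO and 24, 40 and 28 in WT (limma adjusted p = 0.0296). In all, 3 of the 15 were called lower and 1 higher, against 9.6% lower and 7.7% higher among all tested regions, and the median log2 change was -0.92, against -0.004 for all tested regions.

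Nos3, the source of endothelial nitric oxide, had higher values in CSE-KO at both of its regions. The region 3.84 kb upstream of the start site (chromosome 5, 24360654 to 24361283) had 108, 100 and 108 in CSE-KO and 71, 72 and 63 in WT. It rose 1.53-fold (log2 change 0.61 ± 0.16, limma adjusted p = 0.0378), and the groups did not overlap. The region 9.81 kb downstream (24374354 to 24374882) lies in the RefSeq spans of Nos3 and of the noncoding gene Gm15587. It had 54, 112 and 82 in CSE-KO and 35, 11 and 26 in WT, a rise of 3.54-fold (log2 change 1.82 ± 0.44, limma adjusted p = 0.0334), with wide scatter in both groups.

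The sum of both Nos3 regions was 162, 212 and 190 in CSE-KO and 106, 83 and 89 in WT (two-sided exact permutation p = 0.1, the smallest possible). The call for the region upstream of Nos3 did not hold when any 1 of the 6 libraries was left out (limma adjusted p = 0.0549 to 0.134). The inner call did not hold without CSE-KO replicate 2 or 3 or WT replicate 2 or 3 (0.0717 to 0.0825) or with weights per group (0.0504). Within 100 kb of the Nos3 start site the table lists 20 regions, of which 13 carry another gene and 5 lie nearer to another start site.

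Thbd, the gene of thrombomodulin, had a called rise at 1 of 3 regions, with no change called at its promoter. The small region 5.78 kb downstream of the start site and past the gene's end (chromosome 2, 148402317 to 148402494) had 67, 51 and 61 in CSE-KO and 24, 31 and 19 in WT. It rose 2.39-fold (log2 change 1.26 ± 0.22, limma adjusted p = 0.0129) with no overlap. Without WT replicate 1 or 3 it was not called (limma adjusted p = 0.0538 and 0.0508). The region 1.71 kb into the gene had 88, 81 and 87 in CSE-KO and 64, 68 and 61 in WT. These groups were also separate, but the change of 0.40 ± 0.15 was not called (limma adjusted p = 0.112).

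**Figure D3:**
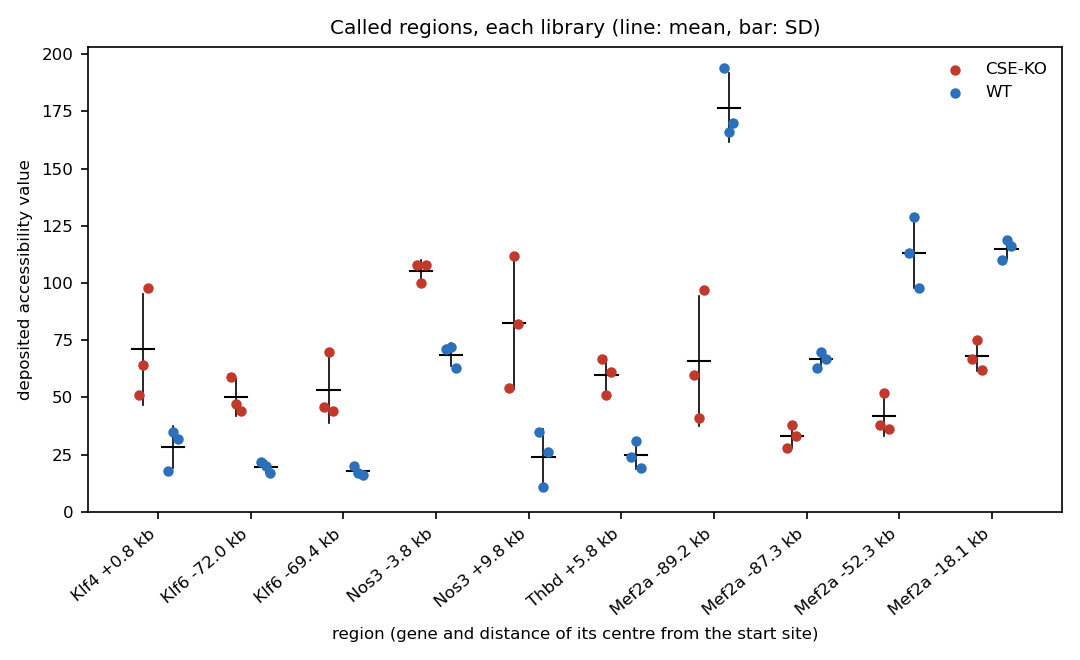
Deposited accessibility value (vertical axis, from 0) of each library at the 10 called regions, with CSE-KO in red left of WT in blue, the mean as a line and the SD as a bar. No called region has overlapping groups, and the 4 Mef2a regions on the right are the ones with WT above CSE-KO.

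Klf4 had 1 called rise, in a small region 0.85 kb into the gene (chromosome 4, 55531515 to 55531725), beside a strong promoter region without a called change. Its values were 51, 64 and 98 in CSE-KO and 18, 35 and 32 in WT, a rise of 2.46-fold (log2 change 1.30 ± 0.33, limma adjusted p = 0.0381). The groups were separate, but the call did not hold without CSE-KO replicate 2 or 3 (limma adjusted p = 0.0706 and 0.0776) or without WT replicate 1, 2 or 3 (0.107, 0.0708 and 0.0863). The next region into the gene, 1.94 kb from the start site, had 123, 138 and 112 in CSE-KO and 150, 149 and 151 in WT, separate but not called. The other 6 Klf4 regions lay between 9.2 kb upstream and 79.8 kb downstream, with log2 changes from -0.80 to 0.69, none of them called. The one 9.2 kb upstream, in the span of the noncoding genes Gm12506 and Gm34343, had 167, 118 and 161 in CSE-KO and 124, 77 and 80 in WT, with a slight overlap. The most accessible of the 6, 17.4 kb downstream, had 123, 129 and 164 in CSE-KO and 129, 128 and 159 in WT, with closely similar groups. The weak region 6.1 kb downstream had 38, 20 and 44 in CSE-KO and 41, 48 and 41 in WT. That at 43.7 kb had 38, 20 and 31 in CSE-KO and 22, 16 and 15 in WT. These groups overlapped, as they did farther out, where the values were at most 45. The region at 51.9 kb had 18, 8 and 8 in CSE-KO and 15, 23 and 20 in WT, and that at 79.8 kb had 26, 15 and 20 in CSE-KO and 23, 37 and 45 in WT. Over all 9 regions Klf4 summed to 903, 872 and 973 in CSE-KO and 880, 850 and 915 in WT (two-sided exact permutation p = 0.5).

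Klf6 had the widest set of open regions, and its called changes were 2 rises far upstream. The region 72 kb upstream of the start site (chromosome 13, 5789392 to 5789657) had 59, 47 and 44 in CSE-KO and 22, 20 and 17 in WT, and rose 2.46-fold (log2 change 1.30 ± 0.19, limma adjusted p = 0.0077). Its neighbour 69.4 kb upstream (5792005 to 5792226) had 46, 70 and 44 in CSE-KO and 20, 17 and 16 in WT, and rose 2.86-fold (log2 change 1.52 ± 0.22, limma adjusted p = 0.00797). All CSE-KO libraries were above all WT libraries at both, and both calls held under each of the 17 alternative settings. A region 87.5 kb upstream had 69, 38 and 48 in CSE-KO and 29, 29 and 25 in WT, which missed the threshold (limma adjusted p = 0.0533).

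The region with the highest values of the set lay 58.5 kb upstream of Klf6 (5801958 to 5804012), overlaps the noncoding gene Gm35413, and is 2054 bp wide. Per kilobase its mean was 255 in CSE-KO and 347 in WT, below the 464 and 465 of the region 23.9 kb upstream. The wide region had 573, 519 and 477 in CSE-KO and 686, 745 and 706 in WT. Every CSE-KO library was lower, but the change of -0.45 ± 0.16 was not called (limma adjusted p = 0.0951). With limma's trend and robust options it was (adjusted p = 0.00147). The region 37.8 kb downstream had 69, 17 and 30 in CSE-KO and 95, 116 and 99 in WT (limma adjusted p = 0.0507), and scattered widely in CSE-KO. The other 10 distal Klf6 regions had log2 changes from -1.10 to 0.47.

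Upstream of Klf6, the region at 23.9 kb had 279, 271 and 297 in CSE-KO and 272, 312 and 264 in WT. The region at 16 kb had 304, 328 and 348 in CSE-KO and 375, 350 and 278 in WT. Both were strongly open with overlapping groups, whereas a weak region at 18.4 kb had 52, 25 and 16 in CSE-KO and 55, 64 and 62 in WT, with all CSE-KO libraries lower but no call (limma adjusted p = 0.0948). Downstream, the region at 4.87 kb had 87, 86 and 66 in CSE-KO and 64, 74 and 54 in WT. The region at 8.83 kb had 256, 244 and 203 in CSE-KO and 276, 322 and 269 in WT, all CSE-KO libraries being lower (limma adjusted p = 0.266). At 10.1 kb the values were 57, 77 and 85 in CSE-KO and 80, 72 and 90 in WT, and at 31.4 kb they were 44, 83 and 61 in CSE-KO and 97, 96 and 73 in WT, with overlap at both. The outermost pair lies in the noncoding gene Gm46401. Of these the one at 78.1 kb had 49, 31 and 48 in CSE-KO and 28, 41 and 23 in WT, and the one at 88.8 kb had 34, 40 and 18 in CSE-KO and 42, 52 and 52 in WT. The groups overlapped at 78.1 kb and were separate at 88.8 kb, where no change was called (limma adjusted p = 0.143). Over all 16 regions the sums were 2262, 2196 and 1985 in CSE-KO and 2435, 2588 and 2275 in WT, a ratio of 0.883 (two-sided exact permutation p = 0.1, the smallest possible).

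Klf2, the central transcription factor of the flow response, had no called region among 6, where 17.3% of all tested regions were called. A small region 4.03 kb downstream of the start site, past the gene's end (chromosome 8, 72322922 to 72323203), had 42, 18 and 21 in CSE-KO and 57, 52 and 56 in WT. The groups were separate and the log2 change was -1.10 ± 0.31, just short of a call (limma adjusted p = 0.0514), and 7 of 17 alternative settings called it lower. The 3 regions from 35.4 to 47 kb downstream lie in the RefSeq span of Eps15l1, a gene of endocytosis. Among these the one at 35.4 kb had 91, 64 and 51 in CSE-KO and 28, 37 and 47 in WT (limma adjusted p = 0.0773). The one at 44.6 kb had 44, 35 and 36 in CSE-KO and 51, 66 and 48 in WT (limma adjusted p = 0.117). At 47 kb the values were 31, 18 and 51 in CSE-KO and 26, 27 and 36 in WT, and the weak region 12.3 kb downstream had 28, 26 and 13 in CSE-KO and 14, 10 and 15 in WT. Both pairs of groups overlapped, and the region at 12.3 kb was called higher only without CSE-KO replicate 3 (limma adjusted p = 0.0347). Over its 6 regions Klf2 summed to 512, 516 and 543 in CSE-KO and 564, 515 and 537 in WT (two-sided exact permutation p = 0.6).

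**Figure D4:**
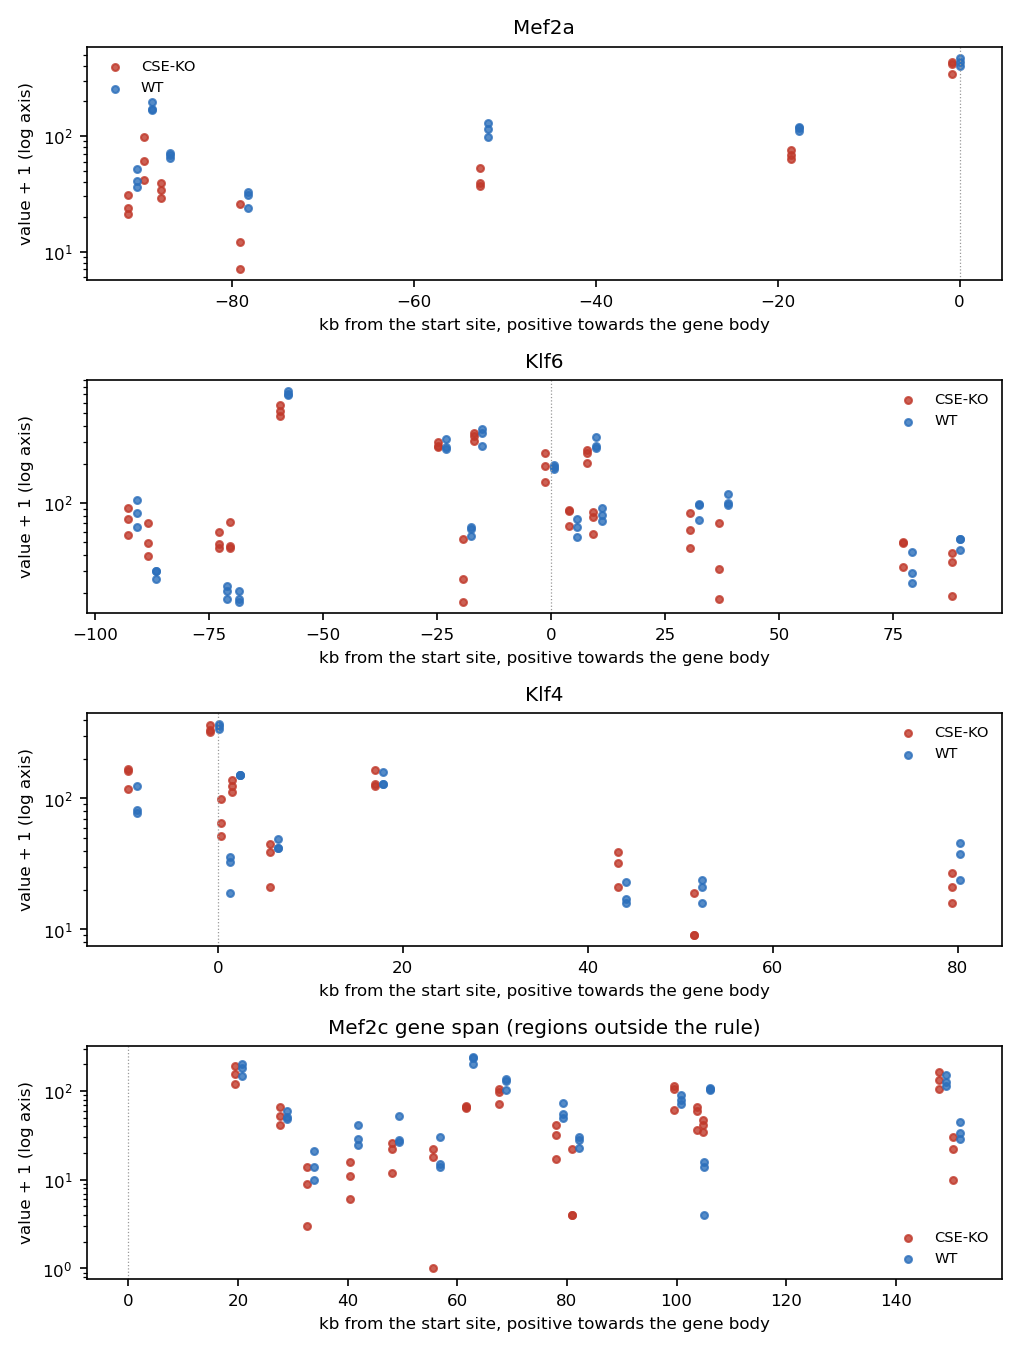
Value + 1 of each library (log axis) against the distance of the region's centre from the start site in kb, for the regions of Mef2a, Klf6 and Klf4 and for the 15 regions in the Mef2c span, with CSE-KO in red and WT in blue, shifted slightly to the left and right of the true position. CSE-KO lies below WT at 5 of the 6 upstream Mef2a regions, of which 4 were called lower, and overlaps it at 78.7 kb, while it lies above WT at the Klf6 regions 72 and 69.4 kb upstream.

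The regions called higher and lower differed in size. The 6 called higher were 177 to 629 bp wide, 4 of them at most 300 bp. Their means were 17.7 to 68.7 in WT and 50 to 105 in CSE-KO. The 4 called lower, all upstream of Mef2a, were 324 to 683 bp wide. Their means were 66.7 to 177 in WT and 33 to 68 in CSE-KO. Which genotype had the higher mean follows from the direction of the call, so it is not a separate result. Whether the regions called lower and higher differ in level was not tested. Over all tested regions, 10.5% of those at most 300 bp wide were called higher and 5.93% lower. Of wider regions 6.75% were called higher and 10.9% lower. The width of 300 bp was chosen after the values were seen, and the part of width and depth in the calls was not tested.

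The limit of 100 kb set which regions counted. The outermost inside it was a Klf6 region 91.7 kb upstream, with 91, 75 and 56 in CSE-KO and 104, 83 and 64 in WT. The nearest outside it was 119 kb upstream of Klf4, with 376, 326 and 354 in CSE-KO and 296, 278 and 310 in WT.

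Other genes of the flow pathway were counted in the same way, from 5 lists chosen with earlier results of these data known. A region near a gene means one assigned to it by the same rule, so it can lie up to 100 kb from the start site. The genes that sense flow and relay it through ERK5 to MEF2 had 22 of 119 regions lower and 4 higher, over 20 of 23 genes with a region. That is 18.5% lower and 3.36% higher, against 9.6% and 7.7% of all tested regions, with a median log2 change of -0.18. Of all distal regions, which make up most of this list, 11.5% were called lower and 8.43% higher. The leading falls were near Hdac7, a class IIa deacetylase that binds MEF2 factors, near the ATP receptor P2ry2, and near Flt4, the VEGF receptor 3. The Hdac7 region had 76 ± 11.5 in CSE-KO and 215 ± 24.5 in WT (SD, n = 3 each), 2.82-fold lower (limma adjusted p = 0.00524). Those near P2ry2 and Flt4 fell 2.57-fold and 2.6-fold. A rise was seen near Kdr, the VEGF receptor 2, at 12 kb upstream (2.61-fold). Others lay 49.9 kb from Mef2d, another MEF2 factor (2.11-fold), and 72.2 kb from Gnaq, a G protein subunit (1.92-fold). The regions near Mef2d and Gnaq were weak, with WT means of 14.7 and 10.7.

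The nitric oxide list had 9 of 61 regions lower (14.8%) and 5 higher (8.2%), against 9.6% lower and 7.7% higher among all tested regions. Near Slc7a1, an arginine transporter that feeds eNOS, a region fell 5.43-fold to 26.3 ± 13.3 in CSE-KO, against 132 ± 11.5 in WT (SD, n = 3 each, limma adjusted p = 0.0113). Near Cav1, the caveolin that holds eNOS inactive, a region fell 1.72-fold. The promoter of Arg2, an arginase that competes with eNOS for arginine, rose 3.55-fold to 45.3 ± 16.2 in CSE-KO, against 11.7 ± 2.89 in WT (n = 3 each, limma adjusted p = 0.0113). A region 58.4 kb from Nostrin, which moves eNOS away from the membrane, rose 2.4-fold. Ddah1, which breaks down methylated arginines that inhibit eNOS, had a region 53.2 kb upstream that rose 2.06-fold and one 40.3 kb downstream that fell 2.61-fold.

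The list of clotting control around thrombomodulin had 7 of 50 regions higher (14%) and 4 lower (8%), against 7.7% and 9.6% of all tested regions. Near Plau, a plasminogen activator, a region rose 2.38-fold. A weak region 97.8 kb from the start site of Pros1, the protein S that assists activated protein C, rose 2.92-fold. Its WT mean was 10.3. Tfpi, the tissue factor pathway inhibitor, had a region 2 kb from the start site that rose 2.28-fold and one 43 kb upstream that fell 2.12-fold. A region near the thrombin receptor F2r fell 1.95-fold. The limma adjusted p of these 5 regions ranged from 0.00664 to 0.0282.

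The list of flow and KLF targets had 16 of 146 regions higher (11%) and 18 lower (12.3%), against 7.7% and 9.6% of all tested regions. Regions 46.3 kb from Ptgs1 and 56.8 kb from Ptgs2, the cyclooxygenases, rose 3.37-fold and 1.8-fold. The Ptgs1 region was weak, with a WT mean of 13.3. Regions 48.9 kb from Angpt2, an angiopoietin that flow keeps low, and 20.9 kb from Cxcr4, a chemokine receptor, fell 3.03-fold and 2.83-fold. Timp3, a metalloproteinase inhibitor, had a rise of 2.78-fold upstream and a fall of 3.31-fold downstream. The other members of the KLF family had 4 of 55 regions higher (7.27%) and 2 lower (3.64%), so neither share was above that of all tested regions (7.7% and 9.6%). Of these, a weak region 92.7 kb upstream of Klf5 rose 4.12-fold from a WT mean of 13.7. Regions 1.01 kb from Klf9 and 94.8 kb from Klf12 rose 1.79-fold and 1.75-fold. Those 77.8 kb from Klf10 and 51.1 kb from Klf13 fell 2.78-fold and 2.77-fold. None of the 11 promoter regions of that family was called in either direction, where 5.23% of all promoter regions were called higher and 3.29% lower.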

How the data were processed

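Values were taken from 1 deposited table of ATAC-seq regions. The submitters' processing notes name the build mm10 and the tools DESeq2 1.26.0, Picard 3.1.1, STAR 2.7.3a and Trimmomatic 0.39. What each did, which program found the regions and whether cuts were shifted for Tn5 is not given in the sources used here. Score is the unit assigned to the deposited values, since whole numbers on a common scale with skipped values look like read counts divided by a size factor and rounded. Group and replicate came from the titles, and no label states that each sample is a separate mouse. The p-values then reflect only how far these samples differ among themselves, which may be technical. limma 3.58.1 (R 4.3.3, eBayes) was run on log2(value + 1), which understates changes of weak regions, for regions with a mean of at least 5, with Benjamini-Hochberg adjustment over all 58129. The test was also run on simulated data, and the outcome is not reported here. Genes, lists and settings were chosen with earlier results of these data known. Named were member promoters, called regions and the strongest region per gene, plus up to 3 genes per list and direction by smallest p, except 1 that is not reported here. Start sites came from 12711 protein-coding genes of the table. Promoters with a profile like a member's were ranked by Pearson's r over the 6 libraries.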

Additional observations from a re-analysis of the deposited data

How the results depend on the processing

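The 10057 called regions became 15448 with limma's trend and robust options, 6013 with a replicate block, and 3519 to 8922 when 1 library was left out. Same-numbered libraries did not deviate together (r = -0.0059, -0.0105 and 0.0105), and the labels do not say whether they were prepared in pairs. With the block, calls at the member regions dropped from 10 to 7, losing both Nos3 regions and the Mef2a region at 18.1 kb (limma adjusted p = 0.0948, 0.0749 and 0.0615). Higher calls among the members ranged from 2 to 5 without 1 library and were 2 by deposited symbol alone. Lower calls were 7 with a pseudocount of 5, a mean of at least 20, quantile normalization or equal sums, 9 with trend and robust, 1 within 50 kb, 0 by symbol alone (11 regions), and 1 to 8 without 1 library. Without WT replicate 1, 2 or 3, calls at the members were 5, 4 and 3. Signs changed only where no change was called. The log2 change of the Klf2 promoter ranged from -0.15 to 0.062 without 1 library. That of the Klf6 promoter was -0.055 with equal sums and ranged from -0.18 to 0.20 without 1 library. The summed difference of Klf4 was -1.62 with equal sums and -0.67 by symbol alone, that of Klf6 20.3 by symbol alone, and that of Thbd -26.0 to 3.5 without 1 library. The CSE-KO libraries rest on fewer reads than the WT libraries, and the part of depth in the calls was not tested.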

Other observations

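Over the 6 libraries, the promoters whose values ran most like a member's were looked up among 9734 promoter regions with a mean of at least 50, as a description with no test. The 6 points fall in 2 genotypes, so a shared difference between them counts towards r. With 9734 promoter regions compared over only 6 points, the best matches can reach a high r by chance. The names below therefore do not show a link between promoters. For the Klf2 promoter they were those of Mmp17, Polr3b and Map7 (Pearson's r = 0.994, 0.993 and 0.99). For the small Klf4 region 0.85 kb into the gene they were Kif11, Pign and Dnajc28 (0.997, 0.996 and 0.995). For the Klf4 promoter they were Wrnip1, Cyb5r3 and Cdk13, and for that of Klf6 Ttll7, Spop and Dedd (0.992, 0.984 and 0.982). For Thbd they were Pwwp2b, Nfia and Dnm2 (0.997, 0.991 and 0.99), and for Mef2a Stard7, Farsb and Rnf31 (0.993, 0.985 and 0.977).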
